A study of Mus musculus with 4 samples.

Results

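Thymidine salvage and nucleotide supply was followed here through 9 mouse genes, Tk1, Tk2, Dck, Dtymk, Tyms, Dut, Rrm1, Rrm2 and Slc29a1. The members were all probe sets that the platform annotation pairs with 1 of these genes alone, which gave 21 of the 45037 probe sets that are not controls, or 9 of 18193 named genes. One further probe set is paired with a member and another gene, so it was left out. The series measured total RNA of 4 lines of LMTK- mouse fibroblasts on Affymetrix arrays, with 1 array for each line. LMTK- cells descend from mouse L cells and are described as lacking thymidine kinase activity, a defect that all 4 lines share. Enzyme activity was not measured here. The control lines, vector 1 and vector 2, were stably transfected with the empty expression vector pCI-neo, a plasmid with a cytomegalovirus promoter and a neomycin resistance gene. The melanotransferrin lines, MTf 4 and MTf 6, carried the same vector with the cDNA of mouse melanotransferrin and are numbered as clones, so each stands for 1 clone. Nothing in the labels tells whether the vector lines came from separate cultures, so the spread between those 2 arrays may be technical. The spread between the MTf arrays also holds differences between clones. In the fit of all 4 arrays the p-values rest on both. The study asked which transcripts differ when melanotransferrin is overexpressed.

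Cells obtain thymidine triphosphate, a building block of DNA, by salvage and by de novo synthesis. In salvage, nucleosides enter through carriers such as Slc29a1, the equilibrative nucleoside transporter ENT1, and are phosphorylated by kinases. Tk1 is the cytosolic thymidine kinase, normally made in S phase, Tk2 is its mitochondrial counterpart, and Dck is the deoxycytidine kinase. In the de novo route, ribonucleotide reductase, made of the large subunit Rrm1 and the small subunit Rrm2, turns ribonucleotides into deoxyribonucleotides. Dut, the dUTPase, then supplies dUMP, and Tyms, thymidylate synthase, methylates it. Both routes meet at Dtymk, the thymidylate kinase. Cells without thymidine kinase activity depend on the de novo route for thymidylate in the nucleus, so they die in medium where folate reduction, and with it Tyms, is blocked, the basis of HAT selection.

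The sequences just before 5 of these genes are shown: Tk1, the gene of the missing activity, and Dck, Tyms, Rrm1 and Rrm2, whose brightest probe sets ranked the lines alike (vector 1, MTf 6, vector 2, MTf 4). Dut shared that ranking, but its RefSeq window lies inside the annotated gene and is not printed. They are RefSeq sequences of the build GRCm38.p6, printed 5′ to 3′ on the gene's strand and ending at the last base before the annotated gene. Capitals mark matches, on either strand, to CCAAT (the NF-Y box), GGGCGG (the Sp1 box) or TTTGAA (a form of the cell cycle element CHR). Tk1 lies on the minus strand of chromosome 11, and the printed stretch is chr11:117826088-117826264.
Tk1: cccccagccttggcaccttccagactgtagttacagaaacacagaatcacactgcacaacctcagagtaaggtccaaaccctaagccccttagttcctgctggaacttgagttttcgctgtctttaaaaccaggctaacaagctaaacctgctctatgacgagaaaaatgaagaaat
Dck lies on the plus strand of chromosome 5, and the stretch is chr5:88764763-88765012.
Dck: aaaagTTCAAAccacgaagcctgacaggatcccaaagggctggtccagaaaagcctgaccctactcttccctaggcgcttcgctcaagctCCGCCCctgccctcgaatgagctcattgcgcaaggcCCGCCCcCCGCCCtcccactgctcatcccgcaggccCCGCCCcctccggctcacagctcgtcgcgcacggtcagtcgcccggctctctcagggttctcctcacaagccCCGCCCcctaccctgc
Tyms lies on the minus strand of chromosome 5, and the stretch is chr5:30073646-30073875.
Tyms: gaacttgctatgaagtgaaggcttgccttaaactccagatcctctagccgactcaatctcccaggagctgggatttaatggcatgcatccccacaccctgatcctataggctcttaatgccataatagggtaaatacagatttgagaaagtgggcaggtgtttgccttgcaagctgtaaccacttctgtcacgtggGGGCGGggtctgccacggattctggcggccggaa
Rrm1 lies on the plus strand of chromosome 7, and the stretch is chr7:102441445-102441694.
Rrm1: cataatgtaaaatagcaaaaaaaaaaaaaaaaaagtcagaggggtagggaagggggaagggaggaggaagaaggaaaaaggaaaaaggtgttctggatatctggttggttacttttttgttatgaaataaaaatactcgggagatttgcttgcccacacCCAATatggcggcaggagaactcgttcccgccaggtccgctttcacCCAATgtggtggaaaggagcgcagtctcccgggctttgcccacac
Rrm2 lies on the plus strand of chromosome 12, and the stretch is chr12:24708004-24708253.
Rrm2: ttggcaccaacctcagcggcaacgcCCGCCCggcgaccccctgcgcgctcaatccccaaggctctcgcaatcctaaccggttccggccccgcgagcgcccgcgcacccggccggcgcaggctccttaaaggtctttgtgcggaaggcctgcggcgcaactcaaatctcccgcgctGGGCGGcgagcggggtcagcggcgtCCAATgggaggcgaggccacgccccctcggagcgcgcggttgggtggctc

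Motifs were counted over windows from 250 bases before to 50 after each start site, 300 bases in all, and in 32851 such windows of the RefSeq table. Each member gene was read by the window of its most upstream start site. CCAAT was found for 3 member genes (Dtymk, Rrm1 and Rrm2) and in 37.4% of all windows. GGGCGG was found for 7 member genes and in 35.7% of windows. In Dck it occurred at 5 places of the printed stretch, whereas in Tk1 its single match lay at position -13 from the start site, outside the printed stretch. TTTGAA was found for Dck and Tk2 and in 17.9% of windows. The E2F forms TTTNGCGC and TTTCCCGC were in 1.38% and 1.07% of windows, the CHR form TTCGAA was in 1.56%, and these letters were in the window of 0 member genes. These matches are a description of the letters in these windows.

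The 9 genes lie on chromosomes 1 (Dtymk), 2 (Dut), 5 (Tyms and Dck), 7 (Rrm1), 8 (Tk2), 11 (Tk1), 12 (Rrm2) and 17 (Slc29a1). Each deposited value is a scaled signal of 1 probe set on 1 array. Signals of different probe sets are not comparable as levels, so lines are compared within a probe set. Differences are on the scale log2(signal + 32), which understates changes of dim probe sets. Of the 21 member probe sets, 17 reached the median of all probe sets, a signal of about 196, and were tested. The 4 below it were the only probe set of Tk1, 2 of 4 for Tyms and 1 of 3 for Rrm1. Meltf, the inserted gene, was at 265 (vector 1) and 274 (vector 2) in the controls and 1519 (MTf 4) and 1885 (MTf 6) in the clones, in the direction of the labels. With a log2 difference of 2.52 it did not pass the adjusted threshold either (limma adjusted p = 0.0903), so a member that did not pass is not shown to be unchanged. Fibroblast markers were above the filter for 8 of 10 genes, and Thy1 and Twist1 were below it. Epithelial, endothelial, macrophage and muscle markers were above the filter for 2 of 6, 1 of 4, 3 of 6 and 2 of 4 genes. Of all named genes, 10682 of 18193 were above it, so these counts do not show which markers were expressed or absent.

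**Figure D1:**
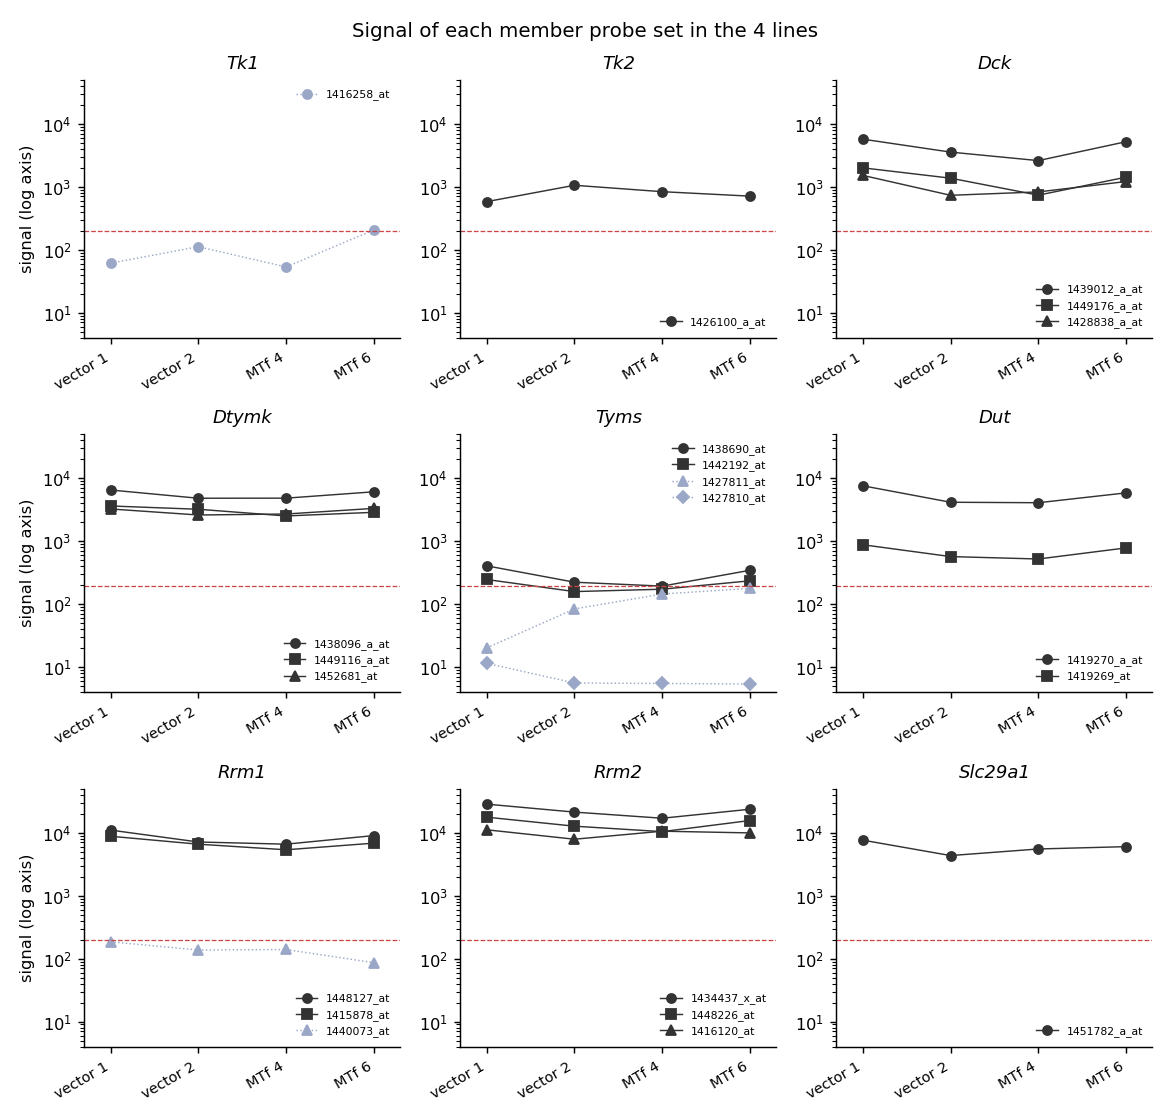
Signal (log axis) of each member probe set in the 4 lines, 1 panel per gene and 1 array per line. Dark symbols are the 17 tested probe sets, pale dotted ones the 4 whose mean was below the filter (dashed line, signal 196), and most dark traces are highest in vector 1 and lowest in vector 2 or MTf 4.

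Between the clones and the vector lines, 0 of the 17 tested member probe sets passed the test, by limma with adjustment over all 22519 probe sets. The share passing among all tested probe sets was 0.00444%, which is 1 probe set. At an unadjusted threshold of 0.05 the members again gave 0, against 1.90% of all tested. Differences between the group means ran from -0.68 for a probe set of Dck to 0.13 for one of Rrm2. The median was -0.20 over the members and -0.01 over all probe sets tested, and 13 of 17 members were below 0 against 51.3% of all. That count followed single arrays, at 5 without vector 1 and 5 without MTf 4, and at 16 without vector 2 and 15 without MTf 6. An exact two-sided permutation test of 2 against 2 arrays cannot go below p = 0.333, and the 95% intervals of the members reached from -1.47 to 0.89.

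**Figure D2:**
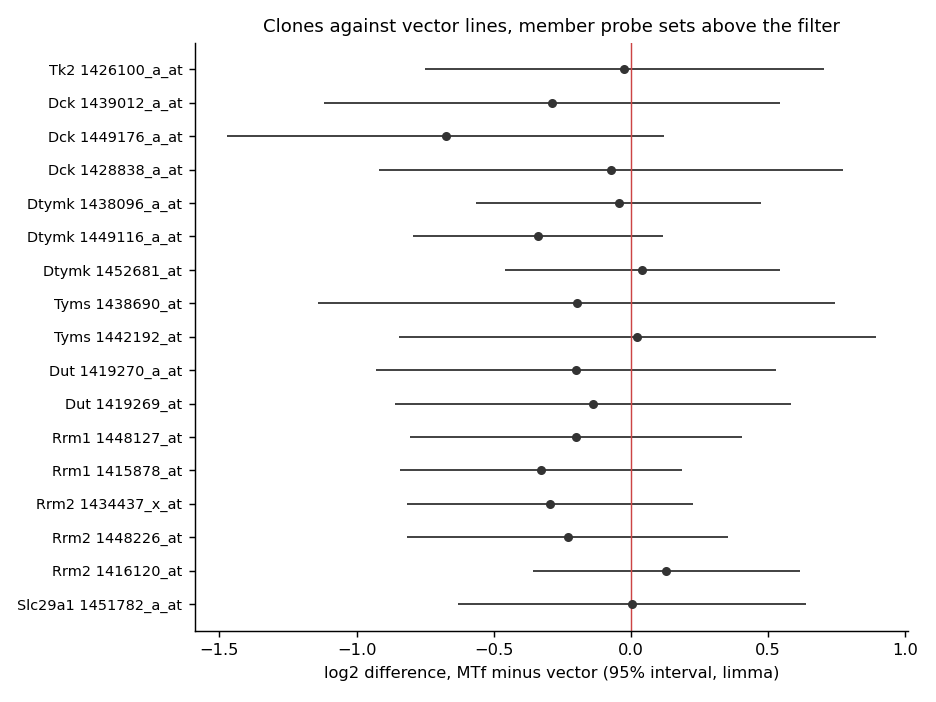
Log2 difference between the MTf clones and the vector lines (points) with 95% intervals from limma (bars) for the 17 tested member probe sets, n = 2 arrays in each group. All 17 intervals include 0, and the points lie between -0.68 and 0.13.

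For most members the lines of the same group differed more than the groups did. Vector 1 was above vector 2 in 16 of 17 member probe sets, against 48.3% of all tested, with a median log2 difference of 0.53. MTf 6 was above MTf 4 in 15 of 17, against 45.6% of all tested, with a median of 0.45. In 14 of 17 both differences within groups were larger in size than the difference between the group means, against 50.8% of all tested. Vector 1 was the highest line in 15 of 17 (23.8% of all tested), and MTf 4 was the lowest in 10 (25.7% of all) and vector 2 in 6 (21.1% of all). In 14 of 17, vector 1 and MTf 6 held the upper 2 places, an order found in 21.3% of all tested. The 17 probe sets read 8 genes, so several are repeat reads of 1 gene. By the brightest tested probe set, the order held for 7 of 8 genes, against 21.9% of all genes. This order was noticed in the values and has no test, and since each line was hybridised once it has no replicate check.

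**Figure D3:**
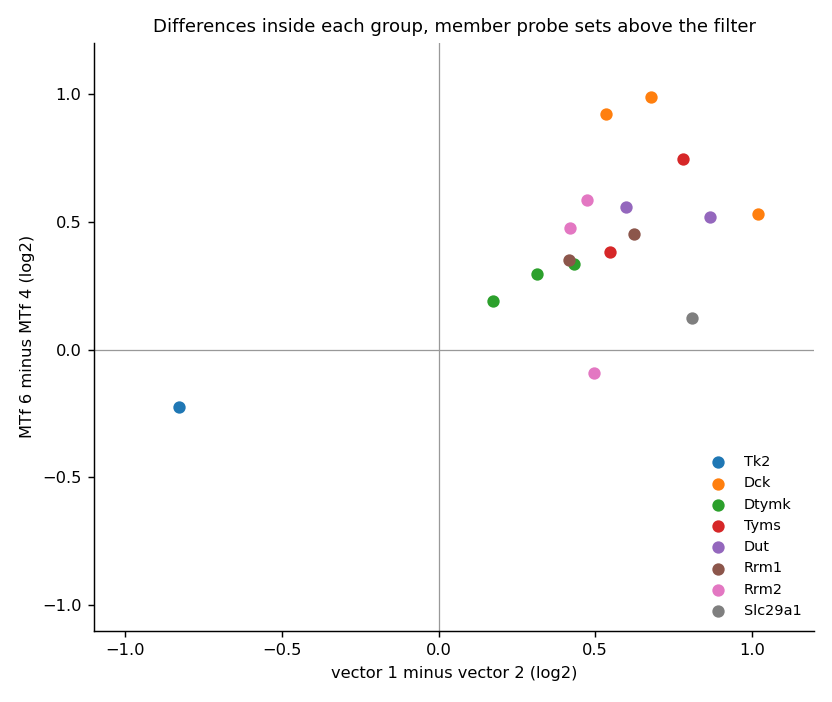
Log2 difference between the vector lines (horizontal axis, vector 1 minus vector 2) against that between the clones (vertical axis, MTf 6 minus MTf 4) for the 17 tested member probe sets, coloured by gene. Most points lie above 0 on both axes, Tk2 lies below 0 on both, and 1 probe set of Rrm2 lies just below 0 on the vertical axis.

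Tk1, the gene of the missing activity, was dim in all 4 lines. Its signal was 61.0 (vector 1) and 111.5 (vector 2) in the controls and 53.2 (MTf 4) and 206 (MTf 6) in the clones. MTf 6 alone was above the filter's signal of 196, and the groups overlapped. No detection call was used, so the order of the other 3 lines was not read. Fitted without the filter, the difference between the groups was 0.30 (95% interval -1.23 to 1.84, limma adjusted p = 1.00, n = 2). A probe set reads RNA and not enzyme activity, and whether these signals come from Tk1 transcripts was not tested.

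Tk2, the mitochondrial kinase, had vector 2 above vector 1 and MTf 4 above MTf 6, unlike most members. It was at 579 (vector 1) and 1054 (vector 2) in the controls and 834 (MTf 4) and 709 (MTf 6) in the clones. Vector 2 was thus the highest line and vector 1 the lowest, with both clones between them. The difference between the groups was -0.02 (95% interval -0.75 to 0.70, limma adjusted p = 1.00).

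Dck, the kinase of deoxycytidine, held the tested probe set with the widest spread across the lines. Its brightest probe set, 1439012_a_at, was at 5695 (vector 1) and 3545 (vector 2) in the controls and 2598 (MTf 4) and 5187 (MTf 6) in the clones. Probe set 1449176_a_at was at 1995, 1367, 734 and 1419 in the same order. In both, MTf 4 was the lowest line and MTf 6 lay between the vector lines. Probe set 1428838_a_at was at 1514 (vector 1) and 731 (vector 2) in the controls and 827 (MTf 4) and 1209 (MTf 6) in the clones, so that vector 2 was lowest there. The highest line was 2.07 to 2.72 times the lowest. Dck also held the lowest group difference of all members, -0.68 for 1449176_a_at (SE 0.34, 95% interval -1.47 to 0.12), with an unadjusted p = 0.0854 and an adjusted p = 1.00 by limma. That value was -1.14 without MTf 6 and -0.21 without MTf 4. For the other probe sets it was -0.29 and -0.07, and the clones overlapped the vector lines in all 3.

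Slc29a1, the carrier that brings nucleosides into the cell, was at 7609 (vector 1) and 4331 (vector 2) in the controls and 5511 (MTf 4) and 6000.5 (MTf 6) in the clones. Both clones lay between the vector lines. The group difference was 0.0023 on the log2 scale (95% interval -0.63 to 0.64), and vector 1 had 1.76 times the signal of vector 2.

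Of the de novo route, Rrm2, the small and S phase-limited subunit of ribonucleotide reductase, was measured by 3 probe sets. The brightest, 1434437_x_at, was at 28390.5 (vector 1) and 21225 (vector 2) in the controls and 16959.8 (MTf 4) and 23577 (MTf 6) in the clones. The suffix x marks probe sets that may also bind other transcripts. Probe set 1448226_at was at 17637, 12679, 10389.9 and 15603 in the same order, with the same ranking of the lines. Probe set 1416120_at was at 11114 (vector 1) and 7874 (vector 2) in the controls and 10558 (MTf 4) and 9917 (MTf 6) in the clones, and there MTf 4 stood above MTf 6. The group differences were -0.30, -0.23 and 0.13, so the probe sets of this gene differed in sign, and the groups overlapped in all 3.

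Rrm1, the large subunit, ranked the lines much as Rrm2 did. Probe set 1448127_at was at 10992 (vector 1) and 7114 (vector 2) in the controls and 6569 (MTf 4) and 8998.5 (MTf 6) in the clones. Probe set 1415878_at was at 8774, 6565, 5349.9 and 6822 in the same order. Both ranked the lines as vector 1, MTf 6, vector 2 and MTf 4, the ranking of 2 of the 3 Rrm2 probe sets. The group differences were -0.20 (95% interval -0.81 to 0.40) and -0.33 (95% interval -0.84 to 0.19), both with limma adjusted p = 1.00. The probe set 1440073_at, below the filter, was at 184.9, 137, 139.6 and 86.0 in vector 1, vector 2, MTf 4 and MTf 6.

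Dut, which removes dUTP and feeds thymidylate synthesis, had that same ranking in both probe sets. Probe set 1419270_a_at was at 7590.5 (vector 1) and 4152 (vector 2) in the controls and 4081 (MTf 4) and 5851 (MTf 6) in the clones. Probe set 1419269_at was at 878, 569.6, 521 and 782.5 in the same order. Vector 2 and MTf 4 were close to each other and vector 1 was 1.83 and 1.54 times vector 2. The group differences were -0.20 (95% interval -0.93 to 0.53) and -0.14 (95% interval -0.86 to 0.58).

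Tyms, thymidylate synthase itself, was read here only by probe sets with signals of 406 or less. Probe set 1438690_at was at 406 (vector 1) and 223 (vector 2) in the controls and 193 (MTf 4) and 345 (MTf 6) in the clones, and 1442192_at at 246, 158, 173 and 235 in the same order. In both, vector 1 and MTf 6 stood above the other lines, and the group differences were -0.20 and 0.02. MTf 4 in both probe sets and vector 2 in 1442192_at were below the filter's signal of 196, so the lower places rest on low signals. Of the 2 below the filter, 1427811_at was at 20.2, 84.0, 145 and 178 in vector 1, vector 2, MTf 4 and MTf 6. There both clones were above both vector lines, with a difference of 1.31 when fitted without the filter (95% interval -0.04 to 2.66, unadjusted p = 0.0555, limma adjusted p = 1.00). Probe set 1427810_at had signals of 11.5, 5.6, 5.5 and 5.4. No detection call was used, so signals this low have no reliable order.

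Dtymk, where salvage and the de novo route meet, varied little across the lines. Probe set 1438096_a_at was at 6499 (vector 1) and 4808 (vector 2) in the controls and 4824 (MTf 4) and 6085 (MTf 6) in the clones, and 1452681_at at 3249, 2605, 2701 and 3318 in the same order. Vector 2 was lowest in both. Probe set 1449116_a_at was at 3625, 3212, 2516 and 2875, and was the 1 member among 17 whose clones did not overlap the vector lines, against 25.8% of all tested probe sets. Its difference was -0.34 (95% interval -0.80 to 0.12, limma adjusted p = 1.00), and those of the other probe sets were -0.04 and 0.04. The highest line was 1.27 to 1.44 times the lowest.

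Between single lines, differences of at least 2-fold on the log2(signal + 32) scale were few. They occurred for 1 member probe set between vector 1 and vector 2 (3.33% of all tested) and for 2 between vector 1 and MTf 4 (4.13% of all), and for 0 in the other 4 pairs, where 2.44% (vector 1 and MTf 6), 2.54% (vector 2 and MTf 4), 4.11% (vector 2 and MTf 6) and 4.77% (the clones) of all tested were past it. The 2-fold differences were those of Dck, by 1428838_a_at between the vector lines and by 1439012_a_at and 1449176_a_at between vector 1 and MTf 4. At 1.5-fold, vector 1 was above vector 2 in 7 of 17 members (6.88% of all) and above MTf 4 in 10 of 17 (7.82% of all).

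Genes of DNA replication and of mitosis varied across the lines alongside these members. Over 8 member genes, each by its brightest tested probe set, the signal stood apart from its 4-line mean by a median of 0.41 in vector 1, 0.13 in MTf 6, -0.20 in vector 2 and -0.34 in MTf 4. For 37 genes of DNA replication and S phase it was 0.43, 0.29, -0.31 and -0.39 in the same order, and vector 1 and MTf 6 were the upper 2 lines for 33 of them. For 22 genes of mitosis it was 0.30, 0.10, -0.12 and -0.28, with the same upper lines for 21. Over all 10682 genes it lay between -0.02 and 0.03 in each line, with those upper lines in 21.9%. Whether the lines differed in the share of cells in S phase was not tested, and in bulk RNA more cycling cells and more RNA per cell cannot be told apart. Between the groups, 0 replication and 0 mitosis genes passed the test in either direction, with medians of -0.11 and -0.15. Of the replication genes 31 of 37 were below 0 and of the mitosis genes 20 of 22, against 51.0% of all genes. Whether these counts followed single arrays, as that of the members did, was not tested. The groups did not overlap for only 2 of the 37 and 1 of the 22, against 24.4% of all genes. Cdc6, which loads the replicative helicase, reached from 1052 in MTf 4 to 2700.5 in MTf 6. Ccne2, cyclin E2, reached from 564 in MTf 4 to 1597 in MTf 6, and Uhrf1, which maintains DNA methylation, from 3162 in MTf 4 to 7942 in vector 1. Tpx2, a spindle assembly factor, Aurkb, the kinase Aurora B, and Cenpf, a kinetochore protein, were each lowest in MTf 4 and highest in vector 1, with ranges of 2.82-fold, 2.11-fold and 1.92-fold.

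**Figure D4:**
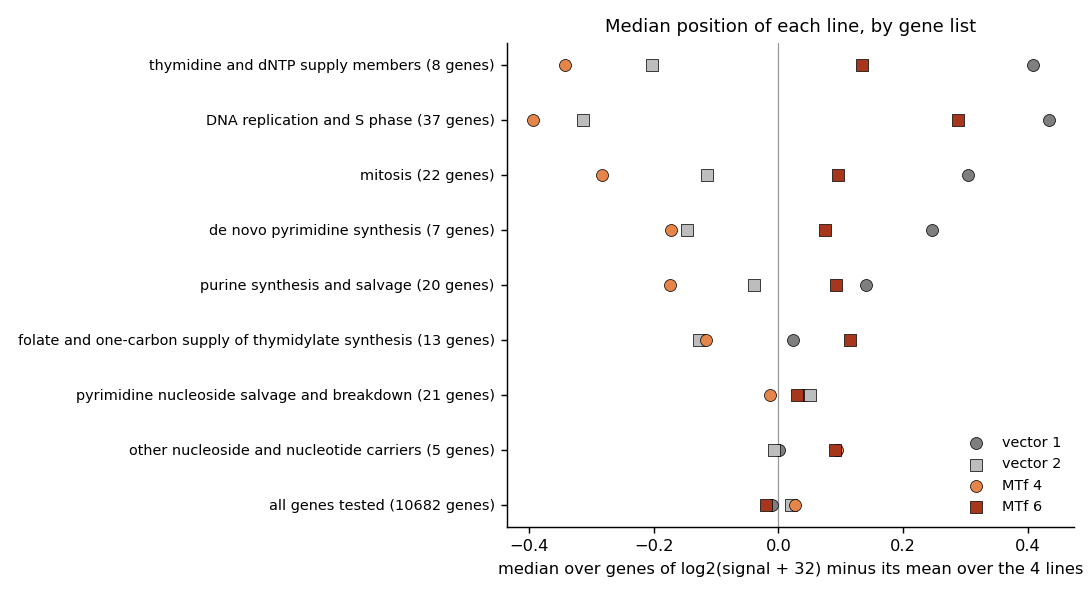
Median over the genes of each list of log2(signal + 32) minus its mean over the 4 lines (horizontal axis), 1 symbol per line and the number of tested genes in brackets. In the upper 3 lists vector 1 and MTf 6 lie above 0 and vector 2 and MTf 4 below it. The de novo pyrimidine, purine and folate lists have the same signs. Over all 10682 genes the 4 lines lie between -0.02 and 0.03.

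Of the other genes of nucleotide supply, 0 passed the test between the groups, and 0 had an unadjusted p under 0.05 (limma; 184 of 10682 genes did over the whole array). Over all genes 51.0% were below 0. For folate and one-carbon genes, which carry the one-carbon unit that Tyms uses, 16 of 18 listed genes had a probe set of their own, 13 were tested, and 0 passed in either direction, with 6 below and 7 above 0 (median 0.10). The upper 2 lines were vector 1 and MTf 6 for 7 of the 13 tested genes, against 21.9% of all genes. Shmt2, the mitochondrial serine hydroxymethyltransferase, had the widest range, from 7769.8 in vector 2 to 20644 in vector 1. Shmt1, its cytosolic counterpart, reached from 2312 in vector 2 to 3846 in vector 1. Aldh1l1, the formyltetrahydrofolate dehydrogenase, went the other way, from 283.5 in vector 1 to 583 in vector 2.

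De novo pyrimidine synthesis held 7 tested genes of 7, and 0 passed in either direction, with 4 below and 3 above 0 (median -0.05). For 5 of the 7, vector 1 and MTf 6 were the upper 2 lines, against 21.9% of all genes. Ctps, the CTP synthase, was at 5784.5 (vector 1) and 4590.3 (vector 2) in the controls and 5552 (MTf 4) and 9532 (MTf 6) in the clones. Prps1, which makes the ribose phosphate donor, reached from 7098 in MTf 4 to 11108 in MTf 6, and Umps, which makes UMP, from 1742 in vector 2 to 2488 in vector 1. Of 23 purine genes 20 were tested and 0 passed, with 11 below and 9 above 0 (median -0.04). In 11 of the 20 purine genes the upper 2 lines were vector 1 and MTf 6. Ada, adenosine deaminase, reached from 521 in MTf 4 to 1178 in MTf 6. Ak1, an adenylate kinase, reached from 1686 in MTf 6 to 4819 in vector 2, and Ak3, a mitochondrial nucleotide kinase, from 3395 in MTf 6 to 6831 in MTf 4.

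Of 32 listed genes of pyrimidine salvage and breakdown, 21 were tested and 0 passed in either direction, with 10 below and 11 above 0 (median 0.01). Vector 1 and MTf 6 were the upper 2 lines for 6 of the 21, against 21.9% of all genes. Upp1, uridine phosphorylase, was at 1677 in MTf 6 and at 3459 in vector 2. Nme1, a nucleoside diphosphate kinase, reached from 14014 in vector 1 to 26563.5 in MTf 6, and Cmpk1, the UMP and CMP kinase, from 9296 in MTf 4 to 14704.5 in MTf 6. Of 9 other carriers 5 were tested and 0 passed, with 1 below and 4 above 0 (median 0.09). Among these 5, vector 1 and MTf 6 were the upper 2 lines for 0. Slc29a3, the intracellular nucleoside transporter ENT3, was at 371 (vector 1) and 192 (vector 2) in the controls and 599 (MTf 4) and 431 (MTf 6) in the clones. Both clones were above both vector lines, MTf 6 by little over vector 1, and the groups did not overlap in 24.4% of all genes. The difference between the group means was 0.85 (95% interval -0.0015 to 1.70, limma adjusted p = 1.00). Slc29a4, the plasma membrane monoamine transporter, reached from 673 in MTf 4 to 1088.5 in vector 2, and Slc28a3, a concentrative nucleoside transporter, from 158 in MTf 6 to 265 in MTf 4.

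The genes with the most similar pattern were found by the Euclidean distance between centred log2(signal + 32) values over the 4 lines, among 10682 genes. For Rrm2, read by its brightest probe set 1434437_x_at alone, they were Amot, Hus1, Cstf3, Tmem33 and Pbk, at distances of 0.024 to 0.043. The Rrm2 probe set 1416120_at ranked the lines otherwise and was not used. For Tyms, read by 1438690_at with signals of only 193 to 406, they were Rfc4, Pstpip2, Ncbp2, Plk4 and Ercc6l, at 0.044 to 0.093. For Tk1 they were 1700067K01Rik, Amelx, Ackr1, Bok and Nupr1l, at the wider distances of 0.19 to 0.35. The Tk1 probe set was below the filter and its order in the dim lines was not read, so these matches rest on low signals. A pattern over 4 lines holds little information, so these names are a description with no test.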

How the data were processed

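Total RNA of 4 lines, 2 with empty vector and 2 with melanotransferrin, was hybridised to Affymetrix Mouse Genome 430 2.0 arrays, 1 array each. Each deposited value is a linear intensity, 1 for each probe set and array, produced in GCOS 1.3 per the submitters' processing notes. The sources used here do not give the GCOS options. No detection call entered the work. The 2%-trimmed mean was 1000.01 on every array, and the authors' scaling was kept. Such scaling hides any change in total RNA per cell.

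From the 45101 probe sets, 64 controls were removed. The platform annotation pairs 34945 of the others with 1 gene and 932 with several. Signals were converted to log2(signal + 32), probe sets at or above the median mean were kept (22519), and MTf minus vector was fitted with limma 3.58.1 in R 4.3.3 (eBayes with a trend), adjusted by Benjamini-Hochberg over all of them, with 0.05 as the threshold. The fit was tested on simulated data. In lists, a gene is its brightest tested probe set.

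The members and lists were chosen with earlier results of these data known. Named genes were all members, Meltf, the 3 genes of each list with the widest range over the lines, and the 5 genes nearest to Tk1, Tyms and Rrm2. The fit was repeated in 13 other ways (offset, filter, scaling, variance model, each array left out), and the count of members below 0 was added after seeing the data, as were the counts of the order of the lines. Chromosomes and start sites come from RefSeq tables of GRCm38.p6.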

Additional observations from a re-analysis of the deposited data

How the results depend on the processing

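No paired analysis was possible because the replicate numbers of the labels differ between the groups. Over the 17 tested member probe sets and 13 alternatives, limma called 0 members, with adjusted p-values of 0.537 or more. Under the 9 alternatives that kept all arrays, 151 of 153 group differences kept their sign; the exceptions were Tk2 with each array centred on its median (0.0015) and Slc29a1 with quantile normalization (-0.00089). With 1 array left out, where the lone array of a group is assumed to vary like the others, 25 of 68 changed sign. The ranges of those differences were -0.44 to 0.39 for Tk2, -0.40 to 0.41 for Slc29a1, -0.78 to 0.21 and -0.58 to 0.44 for Dck (1439012_a_at and 1428838_a_at), and -0.26 to 0.17 and -0.12 to 0.20 for Dtymk (1438096_a_at and 1452681_at). They were -0.59 to 0.19 and -0.25 to 0.30 for Tyms (1438690_at and 1442192_at), -0.63 to 0.23 and -0.44 to 0.16 for Dut (1419270_a_at and 1419269_at), -0.51 to 0.11 for Rrm1 (1448127_at), and -0.52 to 0.061 and -0.12 to 0.38 for Rrm2 (1448226_at and 1416120_at). The other 4 kept their sign, at -1.14 to -0.21 for Dck (1449176_a_at), -0.44 to -0.24 for Dtymk (1449116_a_at), -0.54 to -0.12 for Rrm1 (1415878_at) and -0.53 to -0.058 for Rrm2 (1434437_x_at). The count of members below 0, chosen after seeing the data, ranged from 5 to 16 with 1 array left out and from 12 to 14 otherwise. Over all probe sets the 1 call became 0 without the filter and 0 without the trend, where 1608 and 596 had an unadjusted p under 0.05. It became 2 without vector 1, 6 without vector 2, 25 without MTf 4 and 12 without MTf 6; the cause was not tested. The number of 2-fold differences between single lines among members was 3, with 2 to 4 under other offsets and quantile normalization. Tk1 and the dim Tyms probe sets are limited by low signal.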
